A study of Mus musculus with 6 samples.

Results

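Tet1 encodes a dioxygenase that oxidises 5-methylcytosine in DNA to 5-hydroxymethylcytosine, the first step of active DNA demethylation, and its transcript is known for its high level in pluripotent mouse embryonic stem cells. JARID2 is a DNA- and RNA-binding partner of PRC2, the Polycomb complex that methylates histone H3 at lysine 27. PAR-CLIP locates contacts between a protein and RNA: cells take up 4-thiouridine (4-SU), ultraviolet light crosslinks it to bound protein, and the RNA that comes down with the protein is sequenced. The sites described here are the authors' RNA contact sites of JARID2 on the strand from which Tet1 is transcribed.

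The series compared E14 mouse embryonic stem cells given 2 µM retinoic acid (RA) for 24 h with untreated E14 cells, with 3 libraries in each group. Both groups were grown with 15% serum and LIF, received 500 µM 4-SU for 2 h and were exposed to 400 mJ/cm2 of light at 312 nm, and JARID2 was then immunoprecipitated with an in-house antibody. The authors deposited 1 list per condition that joins its 3 libraries, so single libraries have no values and the spread between replicates is unknown. No library without antibody, of total RNA or from cells lacking JARID2 was analysed here, so a contact site has no background sample beside it.

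Tet1 sites were taken as all minus-strand sites of chromosome 10 between 62265 and 62373 kb (mm9), a window of 108 kb whose higher coordinate is the 5′ end of the gene. The window held 71 of the 28728 sites of both lists: 1 of 5348 in the RA list and 70 of 23380 in the untreated list. Tet1 was chosen by its site numbers in these same lists, so the numbers and scores below are descriptions and carry no test. The name rests on that window, because no gene annotation of mm9 was used. On a later build, GRCm38, the RefSeq Tet1 gene is 82.9 kb long and the GENCODE gene, with its alternative first exons, 104 kb, and the sites here spanned 87.8 kb.

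After RA, 1 Tet1 site was listed, with a score of 6, from 62269115 to 62269155. The untreated sites had scores from 3 to 727 (median 17), between 62267625 and 62355464, and summed to 2915. Of the 70 untreated scores, 2 lay below that of the RA site (3 and 5) and 1 equalled it. The sources used here do not say what the score counts. The files hold contacts and no RNA levels, so fewer contacts per transcript, less Tet1 RNA per cell and fewer cells with Tet1 RNA cannot be told apart.

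**Figure D1:**
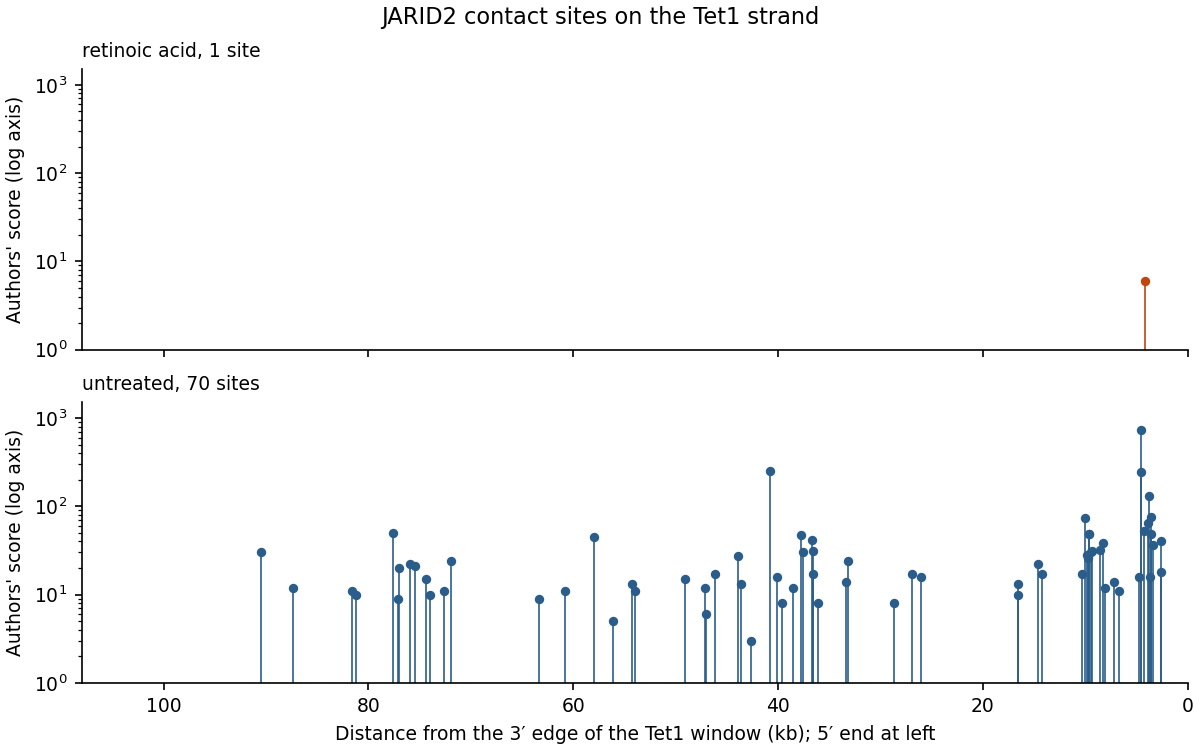
Each point is a JARID2 contact site on the Tet1 strand, RA above and untreated below. The x axis is the distance from the 3′ edge of the window in kb with the 5′ end at left, and the y axis is the authors' score on a log axis. The 1 RA site, scored 6, lies 4.14 kb from the 3′ edge, within the part of the window where untreated sites are densest and highest.

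Tet1 also held a smaller share of the RA list, which was the shorter list as a whole. It made up 0.0187% of the RA list (exact 95% binomial interval 0.000473 to 0.104%) and 0.299% of the untreated list (0.233 to 0.378%). These intervals cover counting error only and treat sites as independent, which sites of the same transcript are not. The share in the RA list was 0.0625 of the share in the untreated list, with a counting interval of 0.00158 to 0.348 from the RA share alone. Scaled to the length of the RA list, the 70 untreated sites would be 16.0.

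The RA site fell below the minimum at which most listed sites begin. Sites scored below 10 made up 206 of the RA list (3.85%) and 1847 of the untreated list (7.90%). Among sites scored at least 10, Tet1 had 0 of 5142 in the RA list, which allows a share of up to 0.0583%, and 62 of 21533 in the untreated list, a share of 0.288%. The RA share was then at least 4.94-fold lower, taking 3 counts in the RA list as the floor and leaving out counting error of the untreated sites (interval 0.221 to 0.369%). With the exact limit it was at most 0.249 of the untreated share. Among sites scored at least 20 there were 0 of 3087 RA sites and 33 of 9934 untreated sites, at least 3.42-fold lower on the same floor (untreated interval 0.229 to 0.466%). The exact upper limit there was 0.119%, or 0.360 of the untreated share. Raising the minimum to 50 gave 0 RA sites and 9 untreated sites. On the floor of 3 counts the RA list then allowed a share of up to 0.189%, within the untreated interval of 0.121 to 0.501%. At 100 it gave 0 RA sites and 4 untreated sites, and a share of up to 0.276% in the RA list could not be told from the untreated 0.212%. No difference could thus be read at either of these minimums. Nor was one tested at 10 or 20: Tet1 was chosen by these counts, so the bounds there are descriptions.

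The RA site was long for its list and low in score. It covered 41 bases, while the median of the RA list was 12 bases, and 51 sites of that list (0.954%) were as long. Sites scored below 10 had a median length of 14 bases in the RA list and 15 in the untreated list. Its score of 6 was reached or undercut by 92 of 5348 RA sites (1.72%). It overlapped 0 untreated sites. The nearest untreated site on its 5′ side began 69 bases away, from 62269225 to 62269238, with a score of 52. On its 3′ side the nearest ended 194 bases away, from 62268900 to 62268920, with a score of 65. Within 1000 bases of the RA site lay 10 untreated sites with a summed score of 1414. The RA contact thus stood between untreated contacts and shared no base with them. The 12 untreated sites around it, from 62267625 to 62269786, covered 180 bases of 2.16 kb, so a lack of overlap of 1 site says little.

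The untreated sites were spread over most of the window and were denser towards the 3′ end. Cut into 3 equal segments, the window held 12 of 70 sites in its 5′ segment (17.1%, exact interval 9.18 to 28.0%), 24 in the middle (34.3%, 23.3 to 46.6%) and 34 in its 3′ segment (48.6%, 36.4 to 60.8%). Each segment was 36 kb long, so the densities were 0.333, 0.667 and 0.944 sites per kb. The RA site lay in the 3′ segment.

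Scores were more unequal along the gene than site numbers. The summed score was 221 in the 5′ segment, 670 in the middle segment and 2024 in the 3′ segment, which carried 69.4% of the Tet1 total. Median scores were 13.5, 14 and 27. Of the 9 untreated sites scored at least 50, 1 lay in the 5′ segment, 1 in the middle and 7 in the 3′ segment. Across the 70 sites, Spearman's rho between the distance from the 3′ edge and the score was -0.46, a description of sites that share a transcript and a pool of libraries.

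**Figure D2:**
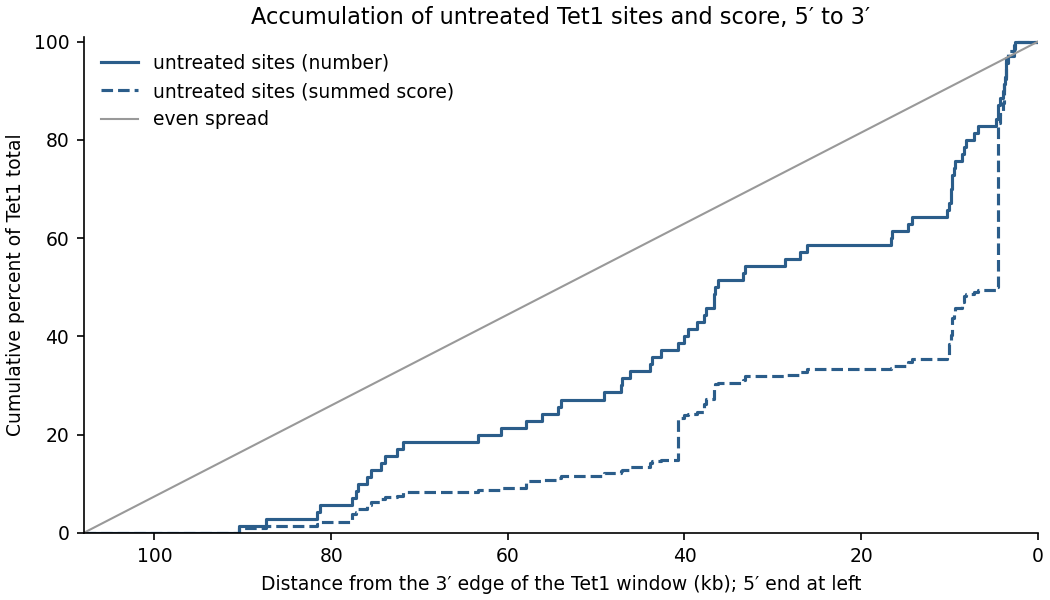
The lines give the cumulative percent of untreated Tet1 sites (solid) and of their summed score (dashed) from the 5′ end at left to the 3′ edge at right, in kb, and the grey line is an even spread. Both run below the even spread until close to the 3′ edge, and 61.5% of the score is added in the last 10 kb, where 32.9% of the sites lie.

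The last 10 kb before the 3′ edge held 23 sites with a summed score of 1792. The next 3 stretches of 10 kb held 6, 3 and 10 sites, with summed scores of 153, 41 and 232. From 40 to 60 kb there were 9 and then 4 sites per 10 kb, with 358 and 74. From 60 to 70 kb there were 2 sites with 20, and from 70 to 80 kb 9 sites with 182. From 80 to 100 kb 3 sites and then 1 site were listed, and the 5′-most 8 kb of the window held 0. The number of sites thus did not run evenly down the gene: the stretch from 70 to 80 kb held as many as that from 40 to 50 kb, and the stretches between them and on the 5′ side held 0 to 4.

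Joined where the gap was at most 1 kb, the 70 sites formed 25 runs, of which 9 were single sites, 13 held 2 to 4 sites and 3 held 5 or more. The 3′-most run had 12 sites within 2.16 kb, from 62267625 to 62269786, and carried 50.5% of the Tet1 score. From the 3′ end, its scores were 18, 40, 36, 76, 49, 16, 131, 65, 52, 727, 246 and 16. Its lowest score was just under the median of all Tet1 sites, and its median was 50.5. The RA site lay inside this run.

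The second run had 13 sites within 3.54 kb, from 62271755 to 62275294. Its scores, from the 3′ end, were 11, 14, 12, 38, 32, 31, 30, 49, 49, 26, 28, 74 and 17. They summed to 411, or 14.1% of the total, and no score reached 100. The other long run, from 62301144 to 62303552, had 7 sites within 2.41 kb with scores, from the 3′ end, of 8, 31, 17, 41, 30, 47 and 12. It lay 36.1 to 38.6 kb from the 3′ edge, far from the other 2.

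The remaining 38 sites lay in shorter runs or alone, scored 3 to 249 (median 13.5) and carried 29.0% of the Tet1 score. The highest of them, from 62305745 to 62305757 and 40.8 kb from the 3′ edge, scored 249, while the other sites of its run scored 8 and 16. Next among the scattered sites were 62342602 to 62342613, scored 50, and 62322939 to 62322956, a lone site scored 45. The 5′-most site, from 62355458 to 62355464, scored 30 and lay 17.5 kb inside the 5′ edge of the window.

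The highest score, 727, belonged to an 11-base site from 62269521 to 62269531. Of 22938 untreated nuclear sites, 546 (2.38%) scored at least as high. Its neighbour from 62269537 to 62269560, which began after a gap of 5 bases and shared the number in its name, scored 246, and the site from 62268826 to 62268846 scored 131. With the site of 249 these were the 4 untreated Tet1 sites over 100. The highest-scored site alone carried 24.9% of the Tet1 score and the 5 highest 49.0%. Without the 5 highest, the untreated sum was 1486.

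The gaps between untreated sites had a median of 440 bases (interquartile range 207 to 1769, range 5 to 9482, 69 gaps). Of these gaps, 12 were at most 100 bases and 3 were over 5 kb. The 3 longest measured 9.48, 8.57 and 5.78 kb, and lay between 62281584 and 62291067, between 62328329 and 62336900, and between 62346605 and 62352389. The next were 4.90 and 4.48 kb. The sites themselves covered 1062 bases, 1.21% of their span.

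These distances can be set beside the size of the Tet1 gene model, although exon positions of mm9 were not used and no site was placed in an exon or an intron. In the GENCODE M21 annotation of GRCm38, the Tet1 transcript with most exons, Tet1-206, has 13 exons that make up 14.4 kb, or 15.2% of the 94.5 kb from its first to its last base. Its last exon is 8.84 kb long and its longest intron 24.4 kb. The sites spanned 87.8 kb in 25 runs.

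Untreated Tet1 sites stood near all untreated nuclear sites in score and length. Their median score of 17 (interquartile range 12 to 35) stood beside 17 (12 to 28) for all 22938 untreated nuclear sites, and beside 22 (13 to 57) for all 5068 RA nuclear sites. Of the Tet1 sites, 47.1% scored at least 20 (exact interval 35.1 to 59.4%), against 41.6% of untreated nuclear sites. At least 100 was reached by 5.71% (1.58 to 13.99%), against 7.18%. These shares differed by less than the counting interval. The median length was 12 bases both for Tet1 and for all untreated nuclear sites, and 16 of the 70 Tet1 sites were 20 bases or longer. The 8 Tet1 sites scored below 10 had a median length of 16.5 bases, against 12 for the 62 others.

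**Figure D3:**
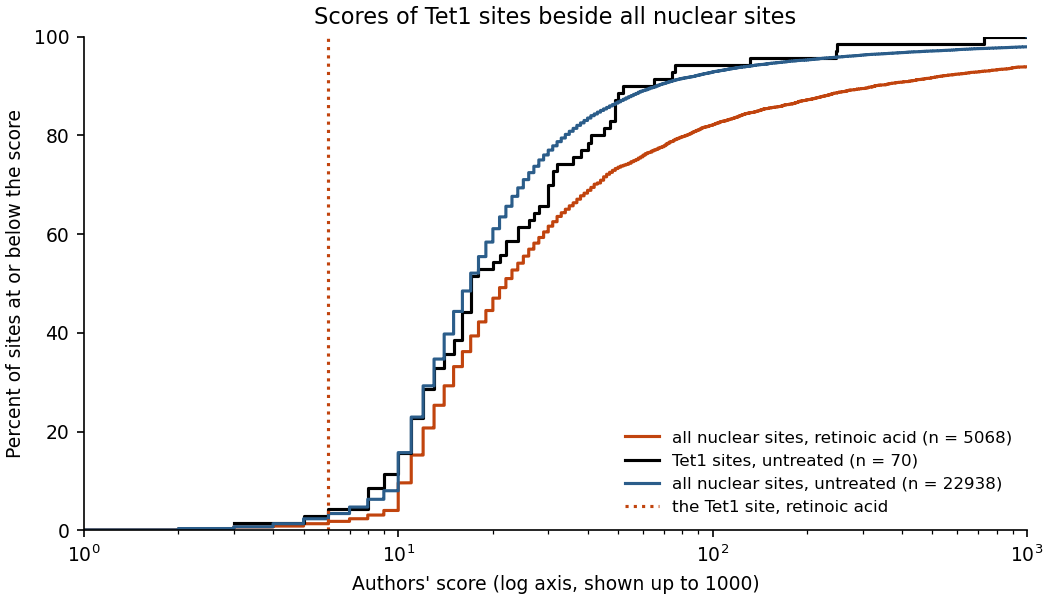
The lines give the percent of sites at or below each score, on a log axis shown up to 1000, for all nuclear sites of the RA list, untreated Tet1 sites and all nuclear sites of the untreated list. The dotted line marks the RA Tet1 site at 6. The Tet1 line follows the untreated line, with a median of 17 in both, and the line of all RA sites lies to the right, with a median of 22.

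Contacts were on the Tet1 strand alone within this window: the plus strand held 0 sites in the RA list and 0 in the untreated list. The window was also isolated on its own strand. The nearest RA sites outside it lay 221 kb beyond its 3′ edge and 113 kb beyond its 5′ edge. The nearest untreated sites lay 35.6 kb beyond the 3′ edge, ending at 62229393, and 105 kb beyond the 5′ edge, starting at 62478417. Widening the window by 10 kb at each end took in no other site of either list.

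To set Tet1 beside other site-rich loci, sites of both lists were joined on a strand across gaps of up to 10 kb. Of the nuclear regions formed, 141 held at least 20 untreated sites. With 70, Tet1 ranked 15 among them by untreated sites, and with 87.8 kb it ranked 9 by span. Its summed untreated score ranked 21, and its median score ranked 97. By untreated sites per 10 kb, 7.97 against a median of 11.2, it ranked 95. In the 141 regions the number of RA sites relative to untreated sites, divided by the same ratio of the whole lists, had a median of 0.665 (interquartile range 0.336 to 0.911), and for Tet1 it was 0.0625. In the 20 regions of 60 kb or longer, Tet1 among them, the median was 0.446. In 52 of the 141 regions (36.9%) this value was below 0.5, and 23 of the 141 (16.3%) held at most 1 RA site. The regions were kept by their untreated sites alone, which by itself lowers this value. These medians and shares therefore give no rate of loss at site-rich loci. Tet1 was chosen for this contrast, so nothing is read from its own count here. Regions with 0 RA sites numbered 8.

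**Figure D4:**
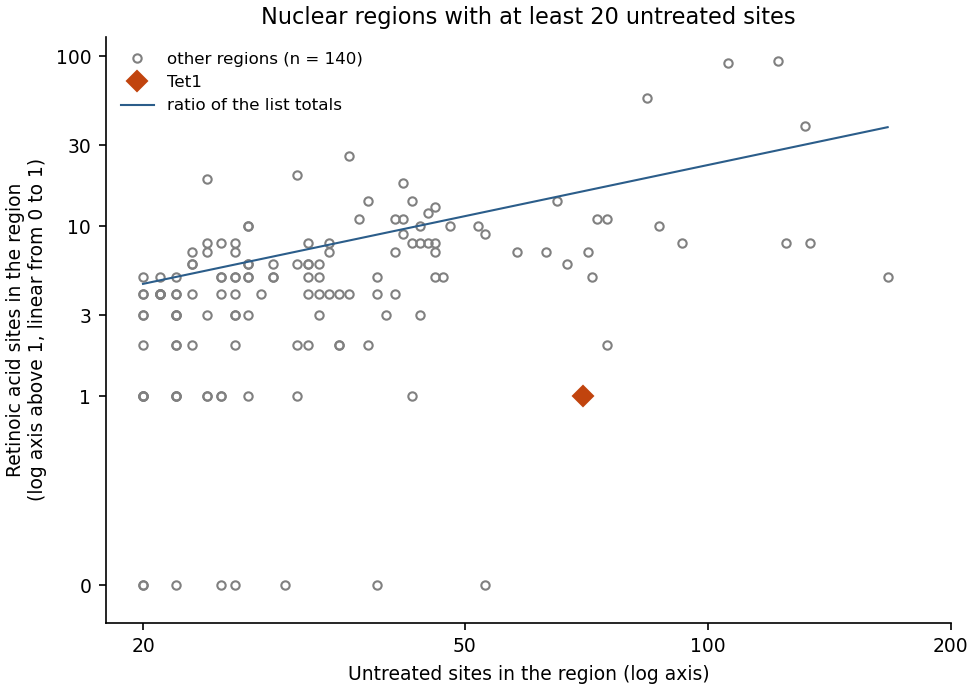
Each circle is a nuclear region with at least 20 untreated sites, and the diamond is Tet1. The x axis is the number of untreated sites (log axis) and the y axis the number of RA sites (log axis above 1, linear from 0 to 1), with a line at the ratio of the list totals. Tet1, with 1 RA and 70 untreated sites, lies below the line, where 16.0 RA sites would be.

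The 3 regions nearest to Tet1 in untreated sites each held more RA sites than Tet1. Tet1 was chosen by its site numbers in both lists and these regions by untreated sites alone, so nothing is read from that order. In the order below, their RA sites relative to untreated sites, divided by the ratio of the whole lists, were 0.431, 0.304 and 0.659. All 3 thus also lay below the ratio of the list totals. One, on chromosome 13 (plus strand, 98253367 to 98267644), had 7 RA sites against 71 untreated sites in 14.3 kb. Another, on chromosome 15 (minus strand, 37897653 to 38006454), was at 109 kb the most like Tet1 in length and had 5 RA sites against 72 untreated sites. The last, on chromosome 3 (plus strand, 41359975 to 41420590), had 11 RA sites and 73 untreated sites in 60.6 kb. It tied with a region on chromosome 1 (minus strand, 180251287 to 180267855), which had 6 RA sites and 67 untreated sites, and was taken because its span was nearer to that of Tet1. Their summed RA scores were 700, 141 and 1789, against 6 for Tet1, and their summed untreated scores were 1997, 1807 and 3301, against 2915.

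Of the 72 nuclear regions with at least 30 untreated sites, Tet1 among them, another 5 had at most 1 RA site. These regions too were kept by their untreated sites alone, so the count gives no rate of loss. They were the minus strand of chromosome 9 from 39998702 with 0 RA and 53 untreated sites, the minus strand of chromosome 15 from 58805203 with 1 and 43, and the plus strand of chromosome 2 from 162881521 with 0 and 39. The plus strand of chromosome 1 from 63609070 held 1 and 31, and the plus strand of chromosome 4 from 145262370 held 0 and 30. Their untreated median scores were 15 to 20, near the 17 of Tet1. In this group Tet1 had the most untreated sites, the longest span and the most untreated sites scored at least 100, with 4, against 2 or 0 in each of the others. None was given a gene name, since no mm9 annotation was used.

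By site number, the 3′ weighting of Tet1 was within the range of such regions. Measured over the span of the sites rather than the window, the 3′ segment held 45.7% of the untreated Tet1 sites. Over the 141 regions the same share had a median of 32% and an interquartile range of 23.5 to 46.2%. In the 3 regions nearest in number it was 25.4, 36.1 and 41.1%. The 3′ share of the summed score, 68.1% for Tet1 over the same span, was not computed for the other regions. The median gap of 440 bases also stood near the median of 470 over the regions.

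The names of the sites hold a further record of the locus, although not one independent of the listed sites. Each name contains a number, written after the letter G, that never decreased along a strand of a chromosome, in either list. The numbers run up to 221592 in the RA list and 247324 in the untreated list, a ratio of 0.896, yet 4702 and 21469 of them are listed, since numbers are skipped between listed sites. The sources used here do not say what a skipped number stands for. Over the untreated Tet1 sites the numbers ran from 25481 to 25776, so 296 were used up. Of these, 64 (21.6%) carried a listed site, against 8.68% over the whole untreated list. A higher share follows in part from the choice of Tet1 by its site numbers and from a range that begins and ends on listed sites. Each of 6 numbers carried 2 sites and none carried more.

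The RA list also used up numbers in the stretch around Tet1, while listing 1 site there. Between the RA sites that flank Tet1 on its strand, 441 kb apart, lay 174 numbers, of which 1 was listed. The same stretch used up between 394 and 432 numbers in the untreated list, with 78 listed sites, 70 of them in the Tet1 window. The RA numbers were therefore 0.403 to 0.442 of the untreated ones there. Around 136 of the 141 site-rich regions where this could be computed, the median was 0.698 by the lower bound and 0.837 by the upper. Tet1 was among the 9 lowest by the lower bound and the 8 lowest by the upper, in intervals that differ in length and partly overlap. The untreated numbers include those of the listed Tet1 sites, and the stretch is bounded by the nearest RA sites. The ratio therefore draws on the lists by which Tet1 was chosen, and nothing is read from its rank.

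The difference in numbering was larger on the side of the RA site that holds most of the gene. That side also holds most of the listed untreated Tet1 sites, whose numbers are counted again here, so the contrast is not independent of them. From the RA site to its 5′ neighbour, a stretch with 62 untreated Tet1 sites, the RA list used up 94 numbers and the untreated list 290 to 315, a ratio of 0.298 to 0.324. From the RA site to its 3′ neighbour, with 8 untreated Tet1 sites and 7 others, the RA list used up 79 numbers and the untreated list 102 to 119, a ratio of 0.664 to 0.775. Where on either side the skipped RA numbers lay cannot be read from the list, so none of them can be placed within Tet1.

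**Figure D5:**
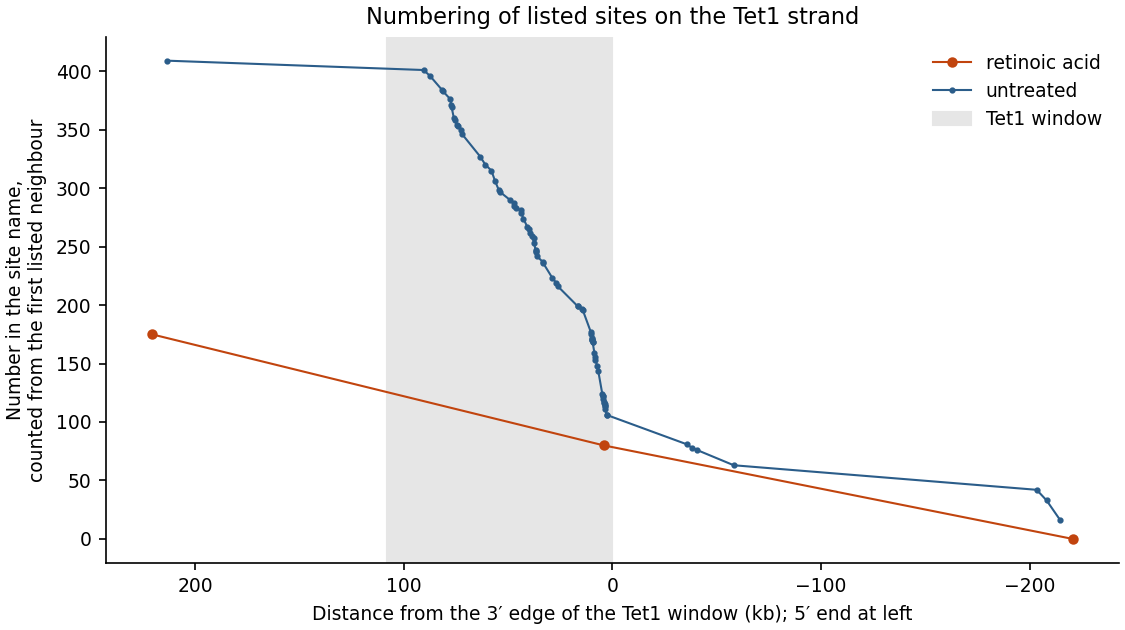
The y axis is the number in a site's name, counted from the nearest listed site at or beyond the 3′ end of the stretch, and the x axis is the distance from the 3′ edge of the Tet1 window (shaded) in kb, with the 5′ end at left. RA sites are the 3 large points and untreated sites the small ones. Across the window the untreated line climbs steeply, using up 296 numbers over its sites, and the RA line passes through 1 site.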

How the data were processed

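JARID2 PAR-CLIP sites were read from the 2 deposited lists, 1 per condition, each made by the authors from 3 libraries. The value of a site is the authors' whole-number score as deposited, whose meaning and scaling are not stated. Bowtie and mm9 are named per the submitters' processing notes, with no role or version. The sources used here do not name the program that called the sites, so read depth is unknown and list length is the depth behind each share.

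All sites were kept, with coordinates written from 1. Nuclear sites exclude the mitochondrial chromosome and contigs named random. Shares have exact 95% (Clopper-Pearson) intervals, and 0 sites were read as at most 3 counts, which lies below the exact upper limit. No test between conditions was run, since each condition is 1 pooled list. Joining and counting were tested on simulated data. The window, regions and alternatives were chosen with earlier results of these data known, and the runs at 1 kb, the gene-model lengths, the score minimum of 50, the length minimum of 60 kb and the numbers in the site names were added after the lists were seen. Compared regions were named by a rule: the 3 nearest in untreated sites (ties by nearer span), and all with at least 30 untreated sites and at most 1 RA site. Lists of TET partners, PRC2 members and cell type markers were not run, and no site sequence is shown, since both need mm9 positions. Python 3.11.15, numpy 2.4.6, pandas 2.3.3, scipy 1.17.1 and matplotlib 3.10.9 were used.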

Additional observations from a re-analysis of the deposited data

How the results depend on the processing

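Joining the region across 10 kb, widening the window by 10 kb and counting both strands left 1 RA and 70 untreated sites. These settings could not change the counts. The nearest site outside the window lay 35.6 kb away, the plus strand held 0 sites, and the longest gap inside was 9.48 kb. Joining sites within 50 bases gave 1 and 62, a share ratio of 0.0721, and list totals without mitochondrial and unplaced sites gave 0.0647. Score minimums changed the numbers: RA sites were 0 at a score of at least 10, 20, 50 or 100, and untreated sites were 62, 33, 9 and 4. The RA share over the untreated share was then at most 0.203, 0.293, 0.715 and 1.31, with 3 counts as the floor. With the exact upper limit of the RA share it was at most 0.249, 0.360, 0.878 and 1.60. These bounds are descriptions that leave out counting error of the untreated sites. At minimums of 50 and 100 no difference could be read. At 10 and 20 none was tested, since Tet1 was chosen by these counts. With the untreated list cut to the score that gives it about the length of the RA list (32 or more, 5428 sites), it held 19 Tet1 sites and the ratio was 0.0534. The RA list was not cut, and its Tet1 site, scored 6, would not reach that minimum, so this ratio sets unlike score minimums side by side. The RA site overlapped 0 untreated sites, but 1 RA site lay within 100 bases of an untreated site, and 1 within 1000 bases. The 5′ segment held 17.1% of untreated sites, 20% with segments of the span and 15.2% at a score of at least 20. The median score was 17, and 21.5 among sites of at least 10. No paired analysis was possible because each condition is 1 pooled list with no column per library, and for the same reason no library could be left out. The RA value rests on 1 site.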
